A study of Mus musculus with 9 samples.

Results

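The collagen genes are the family whose proteins form the fibrils, sheets and filaments of the extracellular matrix. Here they are the protein-coding genes of the deposited table whose symbol is Col, a number, a and a number. There were 44 such genes among 54532 genes in the table, of which 22046 are protein-coding. They were divided by structure into 11 fibrillar, 9 basement membrane, 9 FACIT (fibril-associated with interrupted helices), 4 transmembrane, 6 beaded filament and 3 short chain genes and 2 others (Col26a1 and Col28a1).

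Collagens are wound from chains that each come from a gene of their own, and the chains of 1 type can be encoded on different chromosomes. Fibrillar collagens are the bulk of the organic matrix of dentin and bone, and are also found in dental mesenchyme. Basement membrane collagens lie under epithelia and around vessels. Enamel itself is built on a matrix of amelogenin and related proteins and not on collagen. The epithelia of the enamel organ are bordered by basement membrane, to which the transmembrane collagen XVII helps to attach epithelial cells, and its loss in humans causes skin blistering with enamel defects.

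RNA was taken from first-molar enamel organs of 9 male C57BL/6 pups at postnatal day 12, with 1 library per mouse. For the 5 ELA (early life adversity) pups, cages held little nesting and bedding material between postnatal days 2 and 12, and for the 4 control pups they did not. The paper gives a lower mean body weight for the sequenced ELA pups than for the control pups, which it calls weight-matched. It left the lightest ELA mice out of the analyses that followed its enamel measurements. All pups carried Crh-IRES-Cre and the Ai14 tdTomato reporter, as offspring of Crh-IRES-Cre +/+ dams and Ai14 tdTomato males. ELA pups are titled t-205 (2 pups) or t-203 (3 pups), and control pups c-204 or c-202 (2 pups each). What these numbers stand for is not given in the labels. Pups that share a number may be littermates, and dams were housed with their litters in the ELA or control cages. Every n and p-value here treats the mice as independent and measures only the spread between them, and the p-values would be too small if littermates resemble each other.

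Libraries held 18056774 to 32110160 counts in ELA pups and 18683431 to 20831736 in control pups. Values per mouse are given as CPM (a library's counts scaled to a common total with TMM factors) and levels of different genes are compared as FPKM (CPM per kilobase of the gene length in the table). The 11 listed markers of ameloblasts and dental epithelium, amelogenin included, summed to 117679 to 178186 CPM in ELA pups and 88145 to 115798 CPM in control pups. None of the 11 was at 0 in all libraries. Large parts of these sums were Ambn, Amelx (amelogenin) and Odam. Ambn measured 71537 ± 13244 CPM (SD) in ELA pups and 49523 ± 6273 CPM in control pups. Amelx measured 25789 ± 7106 CPM in ELA pups and 8728 ± 533 CPM in control pups. Of the 11 markers, 8 had a positive log2 fold change of ELA over control. The 3 negative ones were Krt14 (-0.34), Odam (-0.24) and Krt5 (-0.13), and Klk4 was at 0.00083. The library of ELA pup t-203-1-4 stood apart, with 434 CPM on 5 neuron markers. The other ELA libraries held 38.4 to 66.4 CPM and the control libraries 38.3 to 56.9 CPM. Comparisons used edgeR's quasi-likelihood test, with p-values adjusted over all 15909 genes that passed a filter on low counts and a threshold of 0.05. Across all these genes, 10 (0.0629%) passed, and leaving out any 1 mouse left between 0 and 25. Because the tissue was sequenced in bulk, fewer cells of a type and less RNA per cell cannot be told apart.

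Collagens took 1.92% ± 0.64 of all counts in ELA pups and 2.95% ± 0.92 in control pups (SD, n = 5 and 4). The share was 1.34%, 2.38%, 1.40%, 1.68% and 2.81% in the ELA pups, against 3.21%, 2.75%, 1.83% and 4.02% in the control pups. Although 4 of the 5 ELA pups lay below 3 of the 4 controls, the groups overlapped, because the control pup c-202-1-1 was lower than 2 ELA pups. The fibrillar genes Col1a1, Col1a2 and Col3a1 alone held 71.5% ± 3.9 of collagen counts in ELA pups and 75.2% ± 4.7 in control pups. Without them the family took 0.531% ± 0.117 of all counts in ELA pups and 0.704% ± 0.121 in control pups. The difference of the family's mean shares was -1.03 percentage points, and -0.673 without the control pup c-202-1-2.

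**Figure D1:**
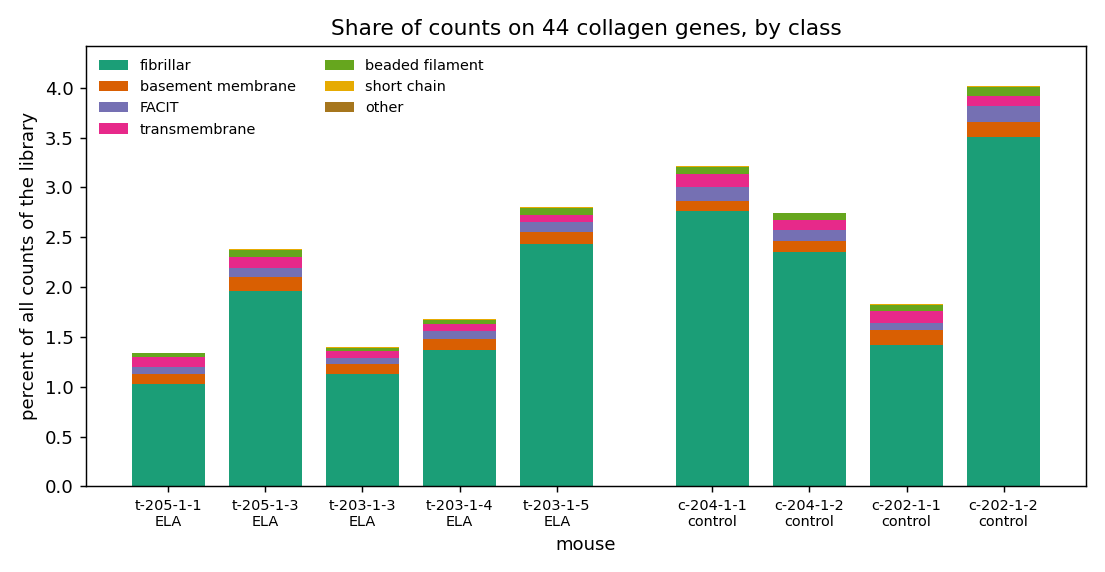
Percent of all counts of each library on the 44 collagen genes, stacked by class, for 5 ELA mice on the left and 4 control mice on the right. Fibrillar genes fill most of every bar, and the totals run 1.34% to 2.81% in ELA mice and 1.83% to 4.02% in control mice.

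Of the 44 collagen genes, 41 passed the filter and were tested. No collagen passed the adjusted p of edgeR (lowest adjusted p = 0.166, for Col3a1). The log2 fold change of ELA over control was negative for 31 of 41 collagens (75.6%), against 47.4% of all genes tested. It was negative for 26 of 42 without the t-203 mice, 26 of 41 without c-202-1-2 and 34 of 42 without c-204-1-1. Its median was -0.27 (-0.14 without the t-203 mice), against 0.01 over all genes. The collagens were measured in the same libraries and are not independent. At an unadjusted p below 0.05, 8 collagens (19.5%) were lower in ELA pups, where 2.89% of all genes were, and 1 collagen (2.44%) was higher, where 3.56% of all genes were. The 8 lower genes became 13 without the ELA pup t-205-1-3, 13 without the control pup c-202-1-1, 5 without the c-204 mice and 3 without the t-203 mice. The 1 higher gene became 0 without the t-203 mice, 2 without the c-202 mice, 3 without the control pup c-202-1-2 and 2 without t-205-1-1, t-203-1-3, t-203-1-5 or c-202-1-1. Col3a1 was the 1 collagen whose ELA and control values did not overlap, and it was lower, as 1.29% of all genes were. No collagen was higher in every ELA pup than in every control pup, whereas 1.39% of all genes were. DESeq2, the tool of the study's methods, called 2 collagens, Col3a1 and Col16a1, both lower, where it called 0.315% of all genes lower and 0.421% higher. With limma-voom no collagen passed.

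**Figure D2:**
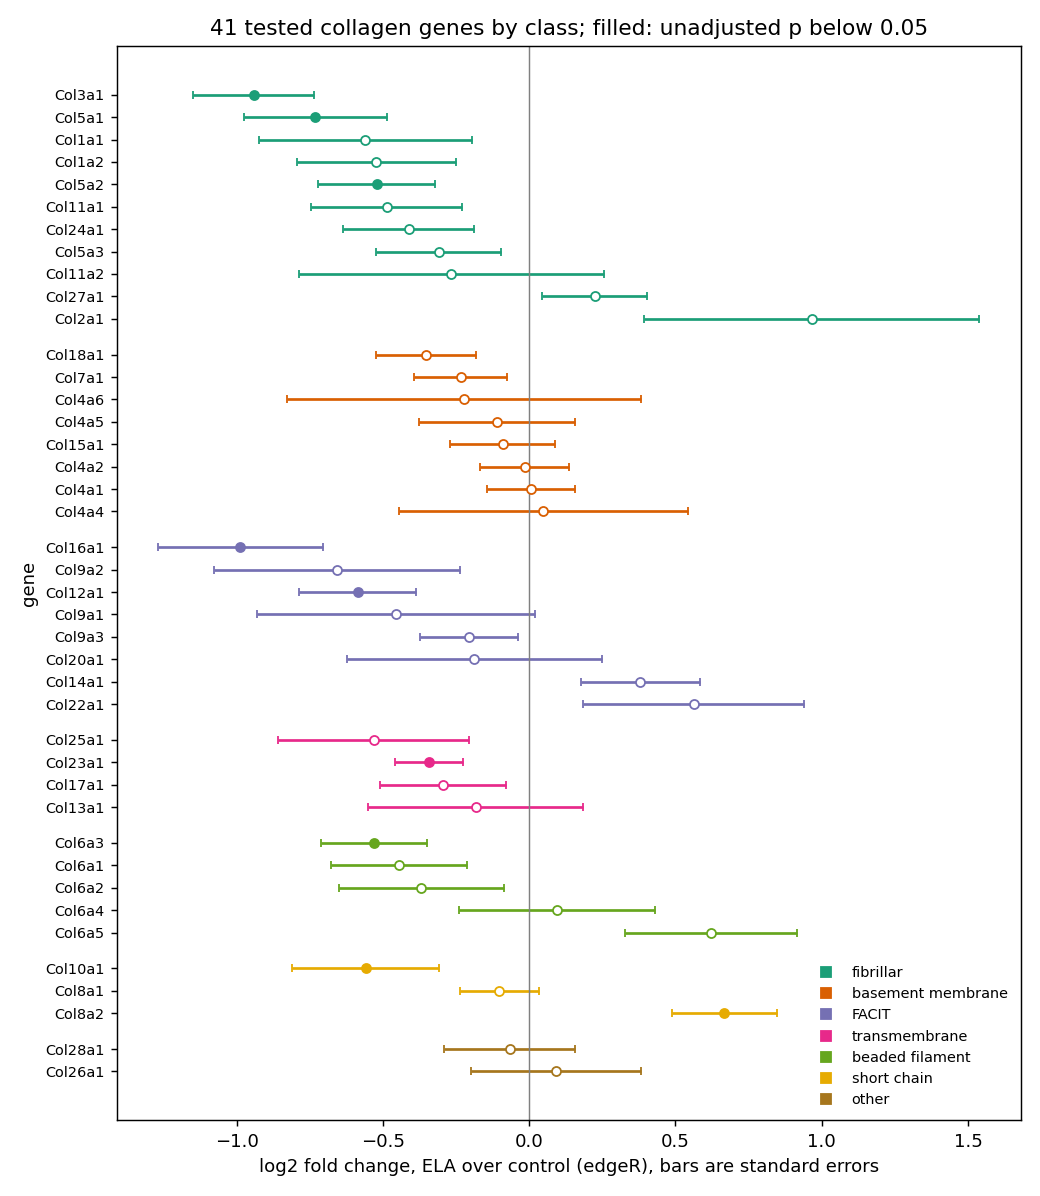
Log2 fold change of ELA over control with its standard error (edgeR) for the 41 tested collagens, grouped by class along the vertical axis. Filled points have an unadjusted p below 0.05. Col16a1 (-0.99) and Col3a1 (-0.94) lie furthest left, and Col2a1 (0.97) and Col8a2 (0.67) furthest right.

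Fibrillar collagens assemble into the banded fibrils that give dentin, bone and connective tissue their strength. All 11 were tested, 9 had a negative log2 fold change, the class median was -0.49, and 3 (Col3a1, Col5a1 and Col5a2) had an unadjusted p below 0.05. Col3a1 encodes the chain of collagen III, which is abundant in soft, pliable connective tissue such as dental pulp and periodontal tissue. It measured 2407, 3138, 2028, 2674 and 3124 CPM in ELA pups, against 6338, 5338, 3327 and 5544 CPM in control pups. Every ELA value was below every control value. The log2 fold change was -0.94 ± 0.21 (SE), with an unadjusted p of 0.000686 and an adjusted p of 0.166 in edgeR (adjusted p = 0.00218 in DESeq2). Leaving out 1 mouse at a time kept the log2 fold change between -1.10 and -0.82. It was -0.73 without the c-204 mice and -1.14 without the c-202 mice. The gene lies on chromosome 1, at 45311538 to 45349706 of GRCm38.

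Col1a1 and Col1a2 encode the chains of collagen I, the main protein of dentin and bone. With the gene lengths of the table, Col1a1 had the highest mean FPKM of all collagens, 839 ± 399 in ELA pups and 1238 ± 491 in control pups. This rank depends on the lengths, since mean CPM over all mice was higher for Col1a2 (7008) than for Col1a1 (6671). The CPM of Col1a1 was 2966, 6675, 3849, 4551 and 9506 in ELA pups, against 9550, 7240, 4096 and 11604 in control pups. The groups overlapped widely, the highest ELA pup (t-203-1-5) being above 2 control pups. Its log2 fold change was -0.56 ± 0.36 (adjusted p = 0.911 in edgeR). It was -0.34 without the control pup c-202-1-2 and -0.85 without the ELA pup t-203-1-5. Col1a2 had a log2 fold change of -0.52 ± 0.27 (adjusted p = 0.830 in edgeR).

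Collagen V starts collagen I fibrils and sets their width. Col5a1 averaged 226 ± 81 CPM in ELA pups and 376 ± 75 CPM in control pups, with a log2 fold change of -0.73 ± 0.24 (unadjusted p = 0.0116, adjusted p = 0.560 in edgeR), and Col5a2 a log2 fold change of -0.52 ± 0.20 (unadjusted p = 0.0235, adjusted p = 0.659). Col5a3 had a log2 fold change of -0.31, Col11a1 of -0.49, Col11a2 of -0.27 and Col24a1 of -0.41, each with an adjusted p of 0.842 or more in edgeR. Col2a1, the chain of the cartilage collagen II, and Col27a1, a fibrillar chain of cartilage, were the positive members, at 0.97 ± 0.57 and 0.22 ± 0.18. Among fibrillar genes Col2a1 spread most, with 67.1, 238, 44.8, 42.0 and 112 CPM in ELA pups, against 27.8, 37.1, 39.7 and 101 CPM in control pups. The ELA value was highest in t-205-1-3, without which the log2 fold change was 0.37, and without the control pup c-202-1-2 it was 1.54. The 7 chondrocyte markers summed to 40.7 to 57.9 CPM in ELA pups and 37.4 to 48.9 CPM in control pups. A large part of that sum was Sox9, a transcription factor that is also made outside cartilage. Sox9 measured 36.3 ± 6.0 CPM in ELA pups and 21.3 ± 3.4 CPM in control pups, higher without overlap, as 1.39% of all genes were. The lowest ELA pup (t-203-1-5, 26.7 CPM) lay just above the highest control pup (c-202-1-2, 26.4 CPM). Its log2 fold change was 0.77 (adjusted p = 0.145 in edgeR and 0.00908 in DESeq2). The cartilage matrix genes Hapln1, at 9.62 ± 2.52 CPM in ELA pups and 16.4 ± 2.2 CPM in control pups, and Acan, at 2.74 ± 2.40 CPM in ELA pups and 4.43 ± 1.5 CPM in control pups, had negative log2 fold changes of -0.77 and -0.69. Comp, another cartilage matrix gene, went the other way, at 1.20 ± 0.43 CPM in ELA pups and 0.631 ± 0.498 CPM in control pups (log2 fold change 0.92). Of the 4 chondrocyte markers tested, 2 were negative and 2 positive. The part of these markers in the Col2a1 values was not tested.

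**Figure D3:**
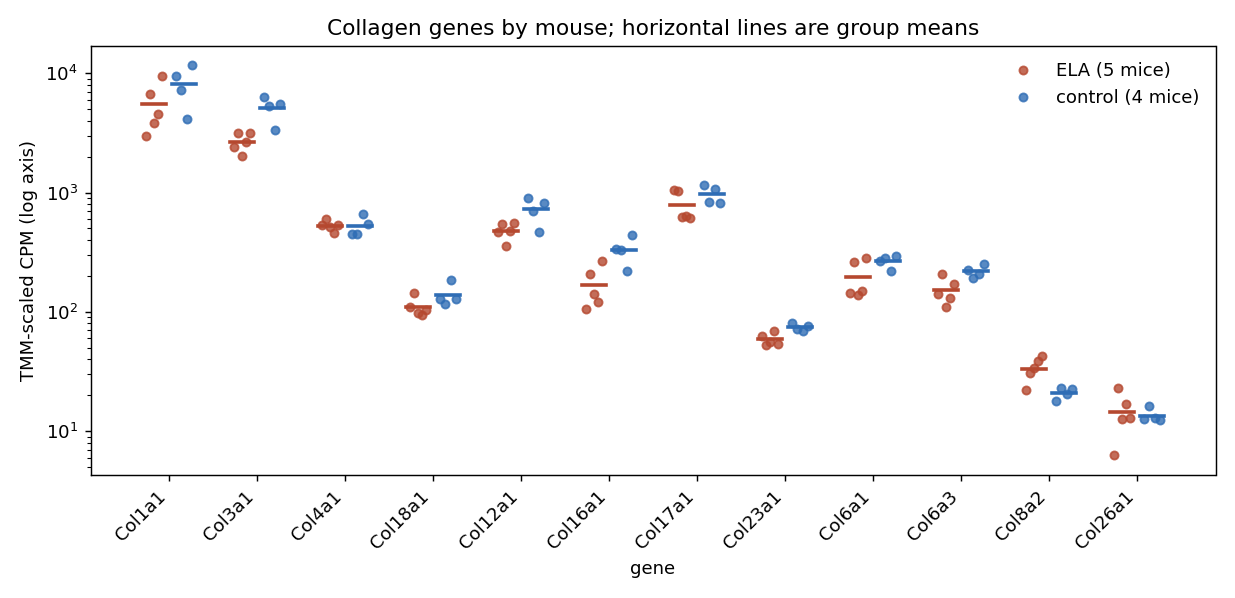
CPM of 12 collagen genes, on a log axis, for each of 5 ELA mice (left of each pair) and 4 control mice (right), with the group means as horizontal lines. Col3a1 is the gene whose groups separate, ELA mice at 2028 to 3138 CPM and control mice at 3327 to 6338 CPM.

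For the fibrillar genes Col3a1 and Col5a1, the 250 bases before the start of the gene are shown, because Col3a1 was the collagen of smallest p and Col5a1 another fibrillar gene with an unadjusted p below 0.05, and neither window overlaps an annotated exon. They are from the RefSeq promoter table of GRCm38.p6 (35 of 44 collagens had an entry), plus strand, 5′ to 3′. Capitals mark the TATA box (TATAAA) and the GC box (GGGCGG, or CCGCCC on the other strand), each searched on both strands.
Col3a1, chr1:45311288-45311537: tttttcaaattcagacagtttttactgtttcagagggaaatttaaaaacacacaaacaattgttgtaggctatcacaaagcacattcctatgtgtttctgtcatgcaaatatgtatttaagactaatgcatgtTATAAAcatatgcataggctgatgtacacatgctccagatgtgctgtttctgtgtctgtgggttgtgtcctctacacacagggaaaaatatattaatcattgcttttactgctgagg
Col5a1, chr2:27886175-27886424: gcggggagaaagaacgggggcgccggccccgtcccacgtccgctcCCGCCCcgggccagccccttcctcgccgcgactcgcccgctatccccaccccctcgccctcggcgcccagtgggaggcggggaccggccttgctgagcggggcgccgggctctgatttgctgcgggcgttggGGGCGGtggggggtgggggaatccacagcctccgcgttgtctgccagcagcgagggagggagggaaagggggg
In the Col3a1 window, 35.2% of bases are G or C, and 1 TATA box match starts 117 bases before the gene, with no GC box match on either strand. In the Col5a1 window, 76.4% of bases are G or C, and 2 GC box matches lie on opposite strands, with no TATA box match. The CCAAT box was also searched on both strands and is in neither window. Of 32851 windows of this length in the table, 12.4% hold a TATA box match, 32.7% a GC box match and 33.8% a CCAAT box match. A match is a description of the letters.

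Basement membrane collagens form the sheets on which epithelia rest. Of 9 genes 8 were tested, with a class median of -0.10, 6 negative log2 fold changes and none with an unadjusted p below 0.05. The class median was 0.16 without the t-203 mice and -0.35 without the t-205 mice, and -0.26 to -0.018 with 1 mouse left out. Col4a1 and Col4a2 encode the chains of the most widespread collagen IV and are transcribed in opposite directions from starts that share 22 bases, so reads there cannot be told apart. Col4a1 measured 534, 603, 514, 459 and 531 CPM in ELA pups, against 450, 453, 655 and 546 CPM in control pups. The groups lay on top of each other, with a log2 fold change of 0.01 ± 0.15 (adjusted p = 0.999 in edgeR). Col4a2 had a log2 fold change of -0.01 ± 0.15. Col18a1, whose end can be cut off as endostatin, measured 110, 143, 98.1, 93.3 and 103 CPM in ELA pups, against 127, 117, 185 and 129 CPM in control pups. That gene was the member of smallest p, at -0.35 ± 0.17 (adjusted p = 0.812 in edgeR). Its log2 fold change was -0.19 without the control pup c-202-1-1, -0.17 without the c-202 mice and -0.15 without the t-203 mice. Col7a1, the anchoring fibril collagen, had a log2 fold change of -0.23, and Col15a1 of -0.09. Col4a3, Col4a4 and Col4a5 encode the collagen IV of the kidney filter. Col4a3 was not tested, at 0.406 ± 0.303 CPM in ELA pups and 0.442 ± 0.229 CPM in control pups. Col4a4 averaged 0.707 ± 0.404 CPM in ELA pups and 0.674 ± 0.353 CPM in control pups, and Col4a5 12.4 ± 5.2 CPM in ELA pups and 13.3 ± 2.6 CPM in control pups. Col4a6, which pairs with Col4a5 in some basement membranes, averaged 1.01 ± 1.06 CPM in ELA pups and 1.17 ± 0.22 CPM in control pups.

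The FACIT collagens decorate the surface of fibrils. Of 9 genes 8 were tested, 6 of them negative with a class median of -0.33, and 2 with an unadjusted p below 0.05. The median was -0.51 without the control pup c-202-1-1 and -0.21 without c-202-1-2. Col16a1, found in the matrix near basement membranes and fibrils, measured 105, 206, 141, 121 and 266 CPM in ELA pups, against 339, 328, 220 and 444 CPM in control pups. The groups overlapped, since the control pup c-202-1-1 was below the ELA pup t-203-1-5. Its log2 fold change was -0.99 ± 0.28, with an unadjusted p of 0.00464 and an adjusted p of 0.411 in edgeR (0.0476 in DESeq2). Col12a1, which sits along collagen I fibrils, measured 468, 549, 353, 476 and 557 CPM in ELA pups, against 896, 706, 471 and 812 CPM in control pups. Its log2 fold change was -0.59 ± 0.20, with an unadjusted p of 0.0126 and an adjusted p of 0.567. The cartilage collagen IX genes Col9a1, Col9a2 and Col9a3 had log2 fold changes of -0.46, -0.66 and -0.21, and Col20a1 of -0.19. Col14a1, which also binds collagen I fibrils, and Col22a1, known from junctions of tissues such as muscle and tendon, were positive at 0.38 and 0.56. Col19a1 was not tested. It held 28 counts in the ELA pup t-203-1-4 and 1 in t-203-1-3, and 0 in the other 7 libraries.

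Transmembrane collagens span the cell membrane and link cells to matrix. All 4 were tested and all had a negative log2 fold change, with a median of -0.32. Col17a1, the transmembrane collagen of hemidesmosomes, where epithelial cells attach, measured 1059, 1029, 624, 634 and 608 CPM in ELA pups, against 1156, 839, 1072 and 812 CPM in control pups. The 2 t-205 ELA pups were within the control range and the 3 t-203 pups lay below every control pup. The log2 fold change was -0.29 ± 0.22 (adjusted p = 0.942 in edgeR), and it was 0.10 without the t-203 mice and -0.64 without the t-205 mice. Col23a1 was the member of smallest p, with 62.7, 53.3, 55.8, 69.0 and 53.5 CPM in ELA pups, against 80.6, 72.5, 68.6 and 76.5 CPM in control pups. The ELA pup t-203-1-4 lay just above the control pup c-202-1-1, and every other ELA pup was below every control pup. In edgeR the log2 fold change was -0.34 ± 0.12 (unadjusted p = 0.0128, adjusted p = 0.569). Col13a1 and Col25a1, which are known from the nerve and muscle contact, had log2 fold changes of -0.18 ± 0.37 and -0.53 ± 0.33.

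Collagen VI chains form beaded filaments around cells. Of 6 genes 5 were tested, with a median of -0.37, which was -0.57 without the ELA pup t-203-1-5, -0.24 without t-205-1-1 and -0.23 without the control pup c-202-1-2. Col6a1 measured 145, 261, 137, 149 and 281 CPM in ELA pups, against 266, 280, 219 and 293 CPM in control pups. The ELA pups split in 2 levels, with t-205-1-3 and t-203-1-5 among the control values. Its log2 fold change was -0.45 ± 0.23 (adjusted p = 0.830 in edgeR). Col6a3, the longest of the classical chains, measured 142, 207, 110, 131 and 170 CPM in ELA pups, against 223, 193, 207 and 254 CPM in control pups. In edgeR its log2 fold change was -0.53 ± 0.18 (unadjusted p = 0.0128, adjusted p = 0.569), and -0.33 without the t-203 mice. Col6a2 had a log2 fold change of -0.37, and Col6a5 and Col6a4 of 0.62 and 0.10. Col6a6 held too few counts to test.

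The short chain collagens form meshes, and Col8a2, known from the Descemet membrane of the cornea, was the 1 collagen that was higher in ELA pups at an unadjusted p below 0.05. It measured 22.3, 30.7, 33.7, 38.6 and 42.4 CPM in ELA pups, against 17.9, 23.3, 20.6 and 22.8 CPM in control pups. The lowest ELA pup, t-205-1-1, lay below 2 control pups, so the groups overlapped. The log2 fold change was 0.67 ± 0.18, with an unadjusted p of 0.00316 and an adjusted p of 0.360 in edgeR (0.0953 in DESeq2), and it was 0.32 without the t-203 mice. Its partner chain Col8a1 had a log2 fold change of -0.10. Col10a1, the collagen of hypertrophic cartilage, had one of -0.56 in edgeR (unadjusted p = 0.0470, adjusted p = 0.761), at 2.65 ± 0.43 CPM in ELA pups and 3.90 ± 0.97 CPM in control pups. Of the other 2 genes, Col26a1 measured 6.29, 23.1, 12.6, 17.1 and 13.0 CPM in ELA pups, against 12.6, 16.2, 12.9 and 12.3 CPM in control pups, with a log2 fold change of 0.09. Col28a1 had a log2 fold change of -0.07.

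The 41 tested genes did not follow 1 order of mice. The control pup c-202-1-2 was the highest of all mice for 17 genes, and among controls for 21 genes. The control pup c-202-1-1 was the lowest of the controls for 19 genes. Among ELA pups t-205-1-3 was highest for 18 genes and t-203-1-5 for 16. Across all mice t-203-1-3 was lowest for 10 genes and t-205-1-1 for 9.

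Ratios between genes of a type were compared within each library. Col4a1 to Col4a2 was nearly the same in all mice, at an FPKM ratio of 1.34 ± 0.08 in ELA pups and 1.32 ± 0.05 in control pups, and its highest value was 1.15 times its lowest. Col1a1 to Col1a2 was 1.73 ± 0.31 in ELA pups and 1.78 ± 0.28 in control pups. This pair changed side of 1 with the length used. As counts it was 0.914 ± 0.165 in ELA pups and 0.939 ± 0.150 in control pups, since the table gives Col1a2 a length of 12426 bases where its longest coding transcript has 5348. Col8a1 to Col8a2 was 0.424 ± 0.124 in ELA pups and 0.698 ± 0.150 in control pups, and the ranges overlapped. As counts Col8a1 to Col8a2 was 0.741 ± 0.217 in ELA pups and 1.22 ± 0.26 in control pups. The mean of Col11a1 to Col11a2 also changed side of 1. It was 0.935 in ELA pups and 0.983 in control pups as FPKM, and 1.74 and 1.83 as counts. Col9a2 to Col9a3 spread 5.75-fold over mice, and its lowest value was in ELA pup t-205-1-1.

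**Figure D4:**
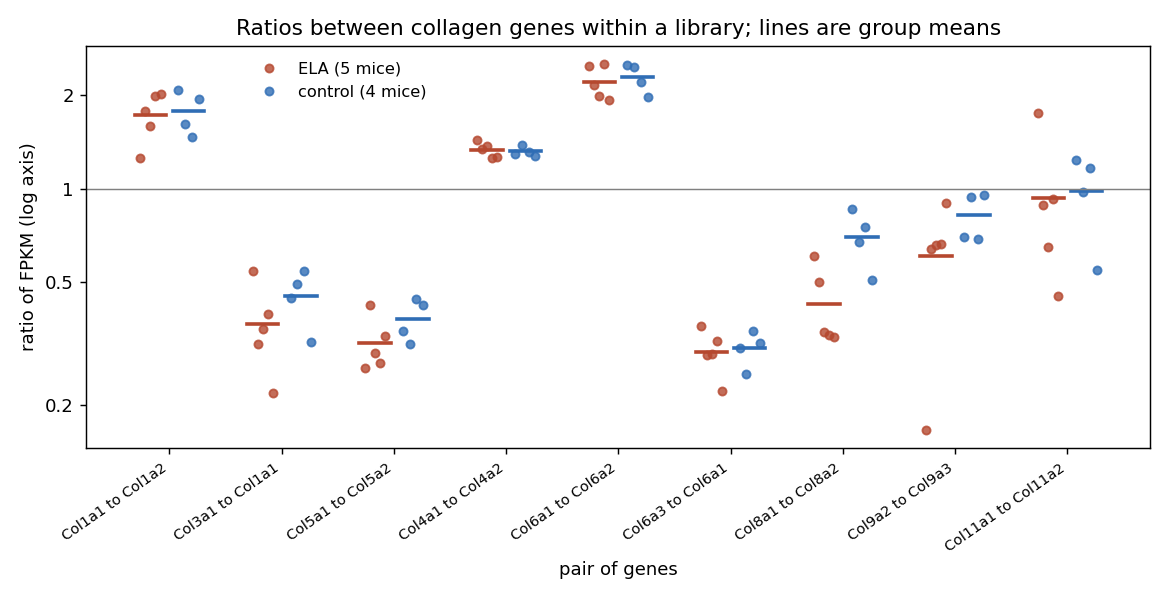
Ratio of FPKM of pairs of collagen genes within each library, on a log axis, for 5 ELA mice (left of each pair) and 4 control mice (right), with group means as lines. Col4a1 to Col4a2 is the tightest pair, at 1.25 to 1.44, and the fibrillar and cartilage pairs spread more.

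The shares of the classes in collagen FPKM also overlapped between the groups for every class. Fibrillar genes held 77.3% ± 4.8 in ELA pups and 80.7% ± 5.8 in control pups. Basement membrane genes held 7.50% ± 1.75 in ELA pups and 5.58% ± 2.72 in control pups. Transmembrane genes held 7.28% ± 2.83 in ELA pups and 6.16% ± 2.43 in control pups. FACIT genes held 3.83% ± 0.44 in ELA pups and 3.82% ± 0.11 in control pups, and beaded filament genes 3.42% ± 0.26 in ELA pups and 3.32% ± 0.63 in control pups. Short chain genes held 0.521% ± 0.115 in ELA pups and 0.297% ± 0.101 in control pups.

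The genes that make, cross-link and break down collagen were read from the same fit. Of 51 listed genes 50 were tested, 38 had a negative log2 fold change, where 47.4% of all genes did, and none passed the adjusted p of edgeR, DESeq2 or limma-voom. At an unadjusted p below 0.05, 7 were lower in ELA pups, where 2.89% of all genes were, and 1 was higher, where 3.56% of all genes were. The 7 became 21 without the ELA pup t-203-1-5 and 11 without the t-203 mice. They became 3 without t-203-1-3 or the control pup c-204-1-2, 4 without t-203-1-4, the control pup c-202-1-2, the c-202 mice or the t-205 mice, and 1 without the c-204 mice. All 5 cross-linking enzymes were negative, and Lox (-0.56), Loxl1 (-0.47) and Loxl2 (-0.34), which join collagen chains by oxidizing lysines, had unadjusted p-values of 0.0185, 0.0375 and 0.0259. All 6 genes of collagen degradation were negative. Mmp2 (a gelatinase), Ctsk (cathepsin K of osteoclasts) and Mmp13 (collagenase 3) had log2 fold changes of -0.74, -0.64 and -0.51, with unadjusted p-values of 0.00763, 0.0475 and 0.0570.

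Of 15 enzymes of hydroxylation and glycosylation 12 were negative, with Colgalt2, which adds galactose to hydroxylysine, at -0.70 (unadjusted p = 0.00475 in edgeR), Plod1, a lysyl hydroxylase, at -0.22, and P3h4 at -0.30. Of 7 genes of folding and export 6 were negative, none with an unadjusted p below 0.05. The smallest p-values were those of Sec23a (0.110), Sec24d (0.178) and Fkbp10 (0.316). Pcolce2, an enhancer of propeptide cleavage, was higher in every ELA pup than in every control pup, as 1.39% of all genes were. It measured 10.4, 10.7, 16.2, 10.01 and 16.3 CPM in ELA pups against 7.28, 9.83, 8.06 and 9.30 CPM in control pups. Its log2 fold change was 0.57 (unadjusted p = 0.0168 in edgeR). Adamts2 and Adamts14, which cleave procollagen, had log2 fold changes of -0.38 and -0.67. Of the 8 genes of propeptide cleavage, 4 were negative and 4 positive. Among 9 tested collagen receptors, 5 were negative and 4 positive. Ddr2, which binds fibrillar collagen, was at -0.37 (unadjusted p = 0.0350 in edgeR), Itga1 at 0.36 and Ddr1 at 0.18.

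Marker lists of other cell types are given here because collagens come mostly from mesenchymal cells. The 10 fibroblast and dental mesenchyme markers summed to 1633 to 2321 CPM in ELA pups and 2685 to 4037 CPM in control pups, without overlap. Of these 9 had a negative log2 fold change, where 47.4% of all genes did, and 5 were lower at an unadjusted p below 0.05, where 2.89% of all genes were. Large parts of the sums were Postn and Lum. Postn measured 750 ± 260 CPM in ELA pups and 1593 ± 365 CPM in control pups, and Lum 648 ± 65 and 1084 ± 273 CPM. Postn, Lum, Pdgfrb and Prrx1 were each lower without overlap, as 1.29% of all genes were. The log2 fold changes of Pdgfra and Fbln1 were -0.07 and -0.13, and that of Mfap5 was 0.60. The 8 osteoblast markers summed to 2566 to 3730 CPM in ELA pups and 2580 to 3612 CPM in control pups. Of these 6 were negative, 2 were lower and 1 was higher at an unadjusted p below 0.05. The higher one, the phosphatase gene Alpl, took a large part of the sum. Alpl measured 1651 ± 118 CPM in ELA pups and 1322 ± 72 CPM in control pups, higher without overlap, as 1.39% of all genes were. The lower ones were the bone matrix genes Ibsp, with a log2 fold change of -0.92 (unadjusted p = 0.00134, adjusted p = 0.229 in edgeR and 0.0109 in DESeq2), and Dmp1, at -0.68 (unadjusted p = 0.0300 in edgeR). The 2 odontoblast markers summed to 486 to 3864 CPM in ELA pups and 882 to 2874 CPM in control pups. Osteoclast markers summed to 186 to 671 CPM in ELA pups and 400 to 687 CPM in control pups, with all 5 tested negative and 2 lower at an unadjusted p below 0.05. Ctsk and Mmp9 are in both this list and that of collagen degradation, and Ctsk counts among the lower genes of both. Pericyte markers summed to 394 to 826 CPM in ELA pups and 464 to 684 CPM in control pups, with all 4 negative and 0 at an unadjusted p below 0.05, and endothelium markers to 301 to 355 CPM in ELA pups and 284 to 365 CPM in control pups. No listed marker of these groups was at 0 in all libraries. The part of these markers in the collagen values was not tested.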

How the data were processed

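Reads were processed and counted by a company, and the authors deposited its counts as a table of whole numbers for each Ensembl gene. CASAVA, HISAT and HISAT2 are named, without versions, in the submitters' processing notes. The counting program and its strand setting were not given in the sources used here. Of 54532 genes, 98.2% have the same coordinates in GENCODE M21 of GRCm38, all 44 collagens included. There were 13 collagens that share exon bases with another gene, and reads on those bases cannot be told apart. For Col3a1, Col7a1 and Col20a1 the other gene is on the same strand, so strand would not part them. The table's gene length, used only for FPKM and ratios, exceeds the longest coding transcript for 43 of 44 collagens.

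Every column was assigned to a mouse by its title and 0 were left out. All pairs of libraries of a group differed beyond sampling noise (chi-square over its degrees of freedom was 21.3 to 134). Counts were compared with edgeR 4.0.16 (R 4.3.3): filterByExpr with a count minimum of 10, TMM, robust glmQLFit and glmQLFTest, with Benjamini-Hochberg adjustment over 15909 genes. DESeq2 1.42.0, limma-voom 3.58.1, RLE factors, no filter, each mouse left out, title numbers left out and counts summed over title numbers were the alternatives. Scripts were tested on simulated data. The SE is the log2 fold change divided by the root of the F statistic. The collagens, their classes, the pathway and marker lists and the rule for named genes were chosen with earlier results of these data known. Values per mouse are given for Col1a1, Col3a1, Col4a1, Col17a1 and Col8a2, for the highest and the smallest-p member of each class, and for Col2a1 and Pcolce2, which were chosen after their values were seen. From each pathway list the 3 genes of smallest p are named.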

Additional observations from a re-analysis of the deposited data

Results flagged for a closer look

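Of 82 groups of values (41 collagens in 5 ELA or 4 control mice), 10 held a mouse far from the others of its group. For independent, normally distributed values the rule flags about 1 in 20 groups. The collagens were measured in the same libraries and are not independent, so the flagged share cannot be set against that rate. Counts were low for Col4a4, Col4a6, Col6a4 and Col20a1, at 6 to 66 per ELA library. The ELA pup t-205-1-3 was far above the other ELA pups for Col22a1 (42.8 CPM, others 13.6 to 21.5), Col4a5 (21.2 CPM, others 8.71 to 12.3) and Col4a6 (2.85 CPM, others 0.312 to 0.962). The ELA pup t-205-1-1 was far above for Col4a4 (1.42 CPM, others 0.463 to 0.623) and far below for Col20a1 (0.492 CPM, others 1.64 to 2.04), and t-203-1-5 was far above for Col6a4 (1.73 CPM, others 0.985 to 1.18). Among control pups, c-202-1-2 was far above for Col2a1 (101 CPM, others 27.8 to 39.7) and far below for Col8a1 (20.1 CPM, others 26.9 to 27.2). The control pup c-202-1-1 was far below for Col5a2 (745 CPM, others 1259 to 1271), and c-204-1-2 far above for Col26a1 (16.2 CPM, others 12.3 to 12.9).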

How the results depend on the processing

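The collagen median log2 fold change stayed negative under all 18 alternatives (-0.37 to -0.14), and no collagen passed the adjusted p except with DESeq2, which called 2. Over all genes the 10 calls became 138 with DESeq2, 38 without a filter, 3 with summed title numbers, and 1, 0, 4 and 59 without the c-202, c-204, t-203 and t-205 mice, and 0 to 25 with 1 mouse left out. The 8 collagens lower at an unadjusted p below 0.05 became 13 with summed title numbers, 5 without the c-204 and 3 without the t-203 mice, and 6 to 13 with 1 mouse left out. The 1 higher collagen became 2 with DESeq2, 3 without a filter, 3 with summed title numbers, 2 without the c-202 and 0 without the t-203 mice, and 1 to 3 with 1 mouse left out. Col4a1 was 0.22 without the c-202, -0.19 without the c-204, 0.11 without the t-203 and -0.065 without the t-205 mice, and -0.063 to 0.13 with 1 mouse left out. Col17a1 was 0.10 without the t-203 and -0.64 without the t-205 mice. Col26a1 was -0.015 with limma-voom, -0.0066 without the c-202 mice and -0.14 to 0.29 with 1 mouse left out. The cause of these shifts was not tested. No paired analysis was possible because the title numbers are nested in the groups. With gene lengths from GENCODE M21, chosen after seeing the data, the Col1a1 to Col1a2 ratio was 0.824 ± 0.149 in ELA pups and 0.847 ± 0.135 in control pups. Low counts limit Col4a3, Col6a6 and Col19a1, which were not tested.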
